A study of Homo sapiens with 16 samples.

Results

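Changes of H3K27ac, an acetylated form of histone H3 found at active promoters and enhancers, were examined in the introns of long protein-coding genes of LX-2 cells given an inhibitor of O-GlcNAc transferase. An intronic region had no base within 2500 bp of the 5′ end of any annotated gene, its centre lay outside every annotated exon, and the longest protein-coding gene over its centre, called its host, spanned at least 200 kb. The authors' 2 lists, of lost regions (less H3K27ac with the inhibitor) and gained regions (more H3K27ac), hold 7130 regions of hg38. Of these, 1128 (15.8%) met the rule, of which 571 were lost and 557 gained. They lay in 490 hosts, 32.6% of the 1502 annotated protein-coding genes of this length.

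LX-2 is an established, immortalised line of human hepatic stellate cells with a myofibroblastic phenotype. Cultures in serum-containing medium were kept for 24 h with OSMI-1 (50 µM) or with its vehicle DMSO (control). OSMI-1 is a small molecule that blocks O-GlcNAc transferase (OGT), which attaches the sugar O-GlcNAc to nuclear and cytoplasmic proteins, and OGTi stands for it here. Of the 16 samples, 8 were H3K27ac ChIP-seq libraries (4 biological replicates in each arm), and the other 8, input DNA and column purified chromatin, enter no comparison here. The lists give positions alone, at the adjusted p threshold of 0.15 stated in their names. The depth behind a region, the size of its change and its spread between replicates are therefore unknown, and markers of the cell type could not be checked. All tests below compare the 2 lists with regions as the unit, so that their p-values say nothing of the variation between cultures. Regions of 1 host share a locus and are not independent.

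Introns of long genes hold many enhancers, the distal elements that transcription factors bind and that carry H3K27ac when active. Such an enhancer may act on its host, on a neighbouring gene or on one farther away, so that a host names a position and not a target. In activated stellate cells, enhancers are bound by TEAD proteins with their co-activators YAP and TAZ, by AP-1, and by serum response factor (SRF), which controls genes of the contractile cytoskeleton. ATF4, a factor of the integrated stress response, binds a composite element with C/EBP proteins.

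Sequences from the hosts with the most lost or most gained regions give examples of motif matches in these intronic elements. The motif shown for each direction was a choice, and the examples do not measure a difference between the directions, which is tested further below. TEAD matches were found in 42.4% of lost and 33.8% of gained regions, and AP-1 matches in 44.5% and 46.0%. The ATF4 composite element was rarer, with a match in 4.20% of lost and 9.69% of gained regions. The first group gives TEAD matches (CATTCC with A or G before and A or T after, on either strand, in capitals) with 10 flanking bases on each side, from lost regions of TENM2, RAD51B and THSD4, read 5′ to 3′ on the plus strand of hg38. A match on the minus strand appears as its reverse complement.
TENM2, intron 4, chr5:167699648-167699675: ttatggggcaACATTCCTatggcctgac
TENM2, intron 4, chr5:167815008-167815035: ctacttttccTGGAATGTctgtctccct
RAD51B, intron 7, chr14:67999471-67999498: tataaacaacACATTCCAagtcagtttg
RAD51B, intron 7, chr14:68231158-68231185: cacattgattTGGAATGTtttctcaact
THSD4, intron 6, chr15:71279154-71279181: gaggactcttACATTCCAgtcaattcac
THSD4, intron 8, chr15:71682693-71682720: tatttaacatTGGAATGTgtagaatgtg

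The second group gives matches in gained regions of ADAMTS12, VEPH1, DST and PDGFC in the same way. Capitals mark an AP-1 site (TGACTCA or TGAGTCA) or the ATF4 composite element (TGATGCAA).
ADAMTS12, intron 2, AP-1, chr5:33850268-33850294: tcagacacaaTGACTCAgcagaaagtt
VEPH1, intron 11, ATF4 composite, chr3:157311816-157311843: tcttcaaataTGATGCAAcagttgaaaa
VEPH1, intron 11, ATF4 composite, chr3:157311945-157311972: caaaaagtagTGATGCAAtcgtttcata
DST, intron 15, ATF4 composite, chr6:56643465-56643492: agtagaatacTGATGCAAtgcttacaaa
DST, intron 3, AP-1, chr6:56865687-56865713: actgctctgtTGAGTCAtagggacaga
PDGFC, intron 1, AP-1, chr4:156947031-156947057: gcagtgttaaTGAGTCAacattacaaa

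The central 200 bp of 3 regions give wider context, with TEAD matches of the lost regions and the AP-1 match of the gained region in capitals. In THSD4, 2 TEAD matches on opposite strands lie close to each other.
THSD4, lost, intron 8, chr15:71691919-71692118: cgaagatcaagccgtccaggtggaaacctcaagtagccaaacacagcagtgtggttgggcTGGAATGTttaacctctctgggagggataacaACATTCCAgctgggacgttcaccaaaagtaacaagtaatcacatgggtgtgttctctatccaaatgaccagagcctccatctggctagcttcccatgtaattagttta
TENM2, lost, intron 5, chr5:167916513-167916712: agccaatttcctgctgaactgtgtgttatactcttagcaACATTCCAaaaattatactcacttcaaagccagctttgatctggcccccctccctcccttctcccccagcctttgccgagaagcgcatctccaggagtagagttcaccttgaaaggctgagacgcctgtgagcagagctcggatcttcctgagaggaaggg
LHFPL2, gained, intron 3, chr5:78530398-78530597: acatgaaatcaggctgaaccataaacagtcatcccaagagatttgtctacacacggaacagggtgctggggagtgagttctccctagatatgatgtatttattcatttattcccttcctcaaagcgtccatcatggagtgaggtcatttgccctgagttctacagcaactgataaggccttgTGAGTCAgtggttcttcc

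Neither loss nor gain of H3K27ac prevailed in the introns of long hosts. Lost regions were 50.6% of the 1128 (Wilson 95% interval 47.7% to 53.5%), beside 49.2% of all 7130 listed regions, 50.9% of the 1490 intronic regions in shorter protein-coding hosts and 48.9% of all regions outside long-host introns. The odds ratio was 0.990 against shorter hosts (Fisher's exact test, two-sided as throughout, p = 0.906) and 1.07 against all other listed regions (p = 0.299). Counted by gene, 203 hosts held lost regions alone, 210 gained regions alone and 77 both. Among single-direction hosts, 49.2% of the long and 51.5% of the shorter ones were lost (odds ratio 0.911, Fisher's exact p = 0.443).

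The lost share differed between classes of host length. It was 49.4% in hosts of 200 to 300 kb (429 regions) and 44.9% in hosts of 300 to 500 kb (370 regions). In hosts of 500 to 1000 kb it was 56.9% (262 regions), and in those of 1000 kb and over 65.7% (67 regions). Of the 44 lost regions in this last class, TENM2 alone held 16. The class had 11 lost-only and 9 gained-only hosts. Hosts of at least 500 kb held 193 of the lost regions (33.8%) and 136 of the gained ones (24.4%), an odds ratio of 1.58 (Fisher's exact test, p adjusted over 8 features 0.00258). Without TENM2 alone the odds ratio was 1.45 (Fisher's exact test, unadjusted p = 0.00623). Without TENM2, RAD51B and THSD4 together it was 1.25 (Fisher's exact test, unadjusted p = 0.113). These were chosen as the 3 hosts with the most lost regions, so that leaving them out lowers the odds ratio by construction. Without the hosts with the most regions of either direction the odds ratio was 1.07 (28.4% against 27.1%, adjusted Fisher's exact p = 0.772). The hosts with the most gained regions all span under 500 kb, so that leaving them out lowers the odds ratio as well. With 1 region of each direction per host it was 1.24, not past the threshold.

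**Figure D1:**
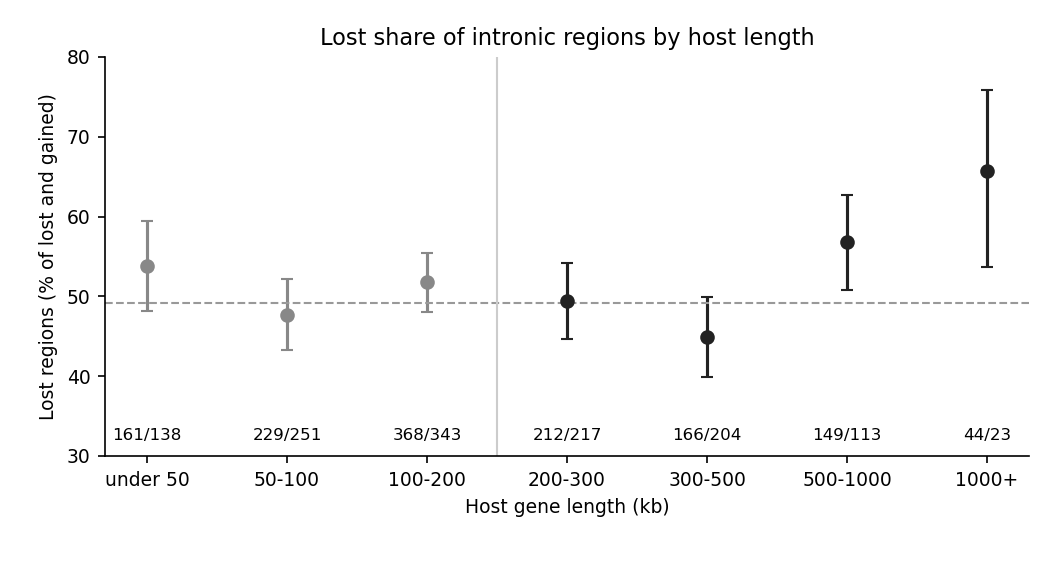
Share of lost regions (%, vertical axis) among intronic regions by length of the host gene (kb, horizontal axis). Points are shares and bars Wilson 95% intervals, the numbers below are lost/gained regions, grey points are hosts under 200 kb, and the dashed line is the share over all listed regions, 49.2%. The highest share is in hosts of 1000 kb and over, where 44 regions were lost and 23 gained. TENM2 alone held 16 of these lost regions.

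The hosts with the most lost regions were a teneurin, a repair gene and a matrix gene. TENM2, which encodes the adhesion protein teneurin-2, spans 1285 kb (chr5:166979029-168264157, plus strand) and held 16 lost regions and no gained one. Of these, 10 lay in intron 4, between 721 and 837 kb from the 5′ end, 5 in intron 5 and 1 in intron 11. RAD51B, a gene of DNA repair, held 14 lost and 2 gained regions (chr14:67819779-68730218, plus strand). Its intron 7 held 12 of the lost regions, between 180 and 412 kb from the 5′ end. Beyond the canonical transcript lay the other 2 lost regions, at 756 and 774 kb, and the 2 gained ones, at 856 and 862 kb. THSD4, whose product takes part in the assembly of fibrillin microfibrils, held 13 lost regions, 11 of them within intron 8, a stretch from 583 to 629 kb (gene at chr15:71096952-71783383, plus strand).

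The next hosts by lost regions held 6 to 8 each. COL4A2, a chain of basement membrane collagen IV, held 8 lost regions over 207 kb, from 20.8 to 181 kb from its 5′ end. CLEC16A, a regulator of autophagy, also held 8 over 238 kb. Lost regions numbered 7 in each of RUNX2 (the transcription factor of osteoblast differentiation), CAMTA1 (a calmodulin-binding transcription activator), MYLK (myosin light chain kinase of smooth muscle contraction), DOCK2 (a Rac activator), AOPEP and MRPS22. The 7 in MYLK all lay in intron 4, between 93.2 and 131 kb from the 5′ end, and 1 gained region lay at 231 kb. In RUNX2, 6 of the 7 lay outside the canonical transcript. The same held for the 7 lost regions of MRPS22, a mitochondrial ribosomal protein gene whose canonical transcript spans 13.1 of the 355 kb annotated to it. MICAL2, PTPRQ, ATRNL1 and ENSG00000255872 held 6 lost regions each.

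Gained regions were led by ADAMTS12, VEPH1 and a group of 3 genes. ADAMTS12 (chr5:33523535-33892019, minus strand), a secreted metalloproteinase, held 14 gained regions and no lost one, 13 of them in intron 2 between 38.5 and 103 kb from the 5′ end. VEPH1, which encodes a pleckstrin homology domain protein, held 13 over 274 kb (chr3:157259742-157533619, minus strand), from 3.50 to 251 kb. DST, EXT1 and PDGFC held 11 gained regions each. DST encodes dystonin, a linker of cytoskeletal filaments, and its gained regions lay in 6 introns. EXT1, a polymerase of heparan sulfate chains, held all 11 in intron 1, which spans 273 kb. PDGFC, a ligand of PDGF receptors, held 8 of its 11 in intron 1, from 9.40 to 40.5 kb from the 5′ end (chr4:156760454-156971799, minus strand). PDGFC had the shortest span of the 5, 211 kb, and thus the most regions per length, 5.20 per 100 kb, against 1.25 per 100 kb in TENM2.

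LHFPL2 and the anchoring protein gene PALM2AKAP2 followed with 8 gained regions each. NALF1, FMN1 and TRIO had 7 gained regions, and CDH13, BACH1 and MACF1 had 6. In NALF1 all 7 lay in intron 1, which spans 655 kb. FMN1 (a formin that nucleates actin), CDH13 (T-cadherin) and MACF1 (a linker of actin and microtubules) each held 1 lost region as well.

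**Figure D2:**
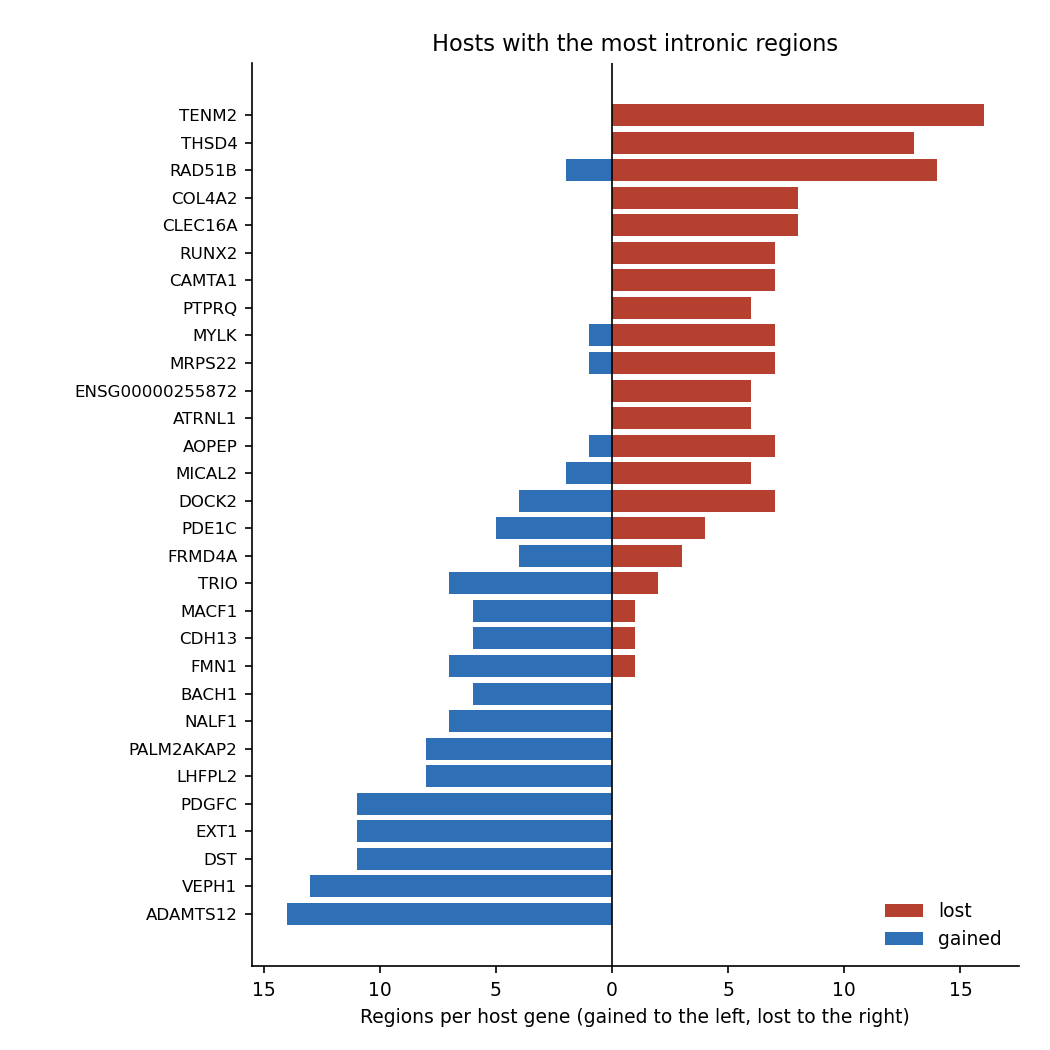
Number of lost regions (red, to the right) and gained regions (blue, to the left) per host gene, for the hosts with the most regions of each direction and for 6 hosts with at least 2 of each. TENM2 has 16 lost regions, ADAMTS12 has 14 gained ones, and DOCK2, PDE1C, FRMD4A and TRIO carry both directions.

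Regions of 1 host tended to be listed in 1 direction. Of the 252 hosts with 2 or more regions, 92 were lost only, 83 gained only and 77 mixed. Of 638 pairs of neighbouring regions in 1 host, 539 (84.5%) shared a direction. It was 319 of the 417 pairs (76.5%) that lay over 5 kb apart and thus did not abut. These shares are descriptions without a test. No such share is given for shorter hosts or for all listed regions, so they are not shown to be particular to long hosts.

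Within mixed hosts the directions could be laid out in separate stretches. In DOCK2 the 7 lost regions lay from 57.7 to 127 kb from the 5′ end and the 4 gained ones from 309 to 339 kb, in intron 27. In PDE1C, a calmodulin-dependent phosphodiesterase of cAMP and cGMP, the 4 lost regions lay from 267 to 313 kb and the 5 gained ones from 473 to 544 kb. FRMD4A, a scaffold protein of cell polarity, had 3 lost regions from 46.3 to 62.4 kb and 4 gained ones from 569 to 578 kb. TRIO, an activator of the GTPase Rac, differed from these, since 1 lost region at 42.9 kb lay among 7 gained regions from 5.79 to 127 kb. MICAL2, a monooxygenase that disassembles actin filaments, likewise interleaved 6 lost and 2 gained regions.

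**Figure D3:**
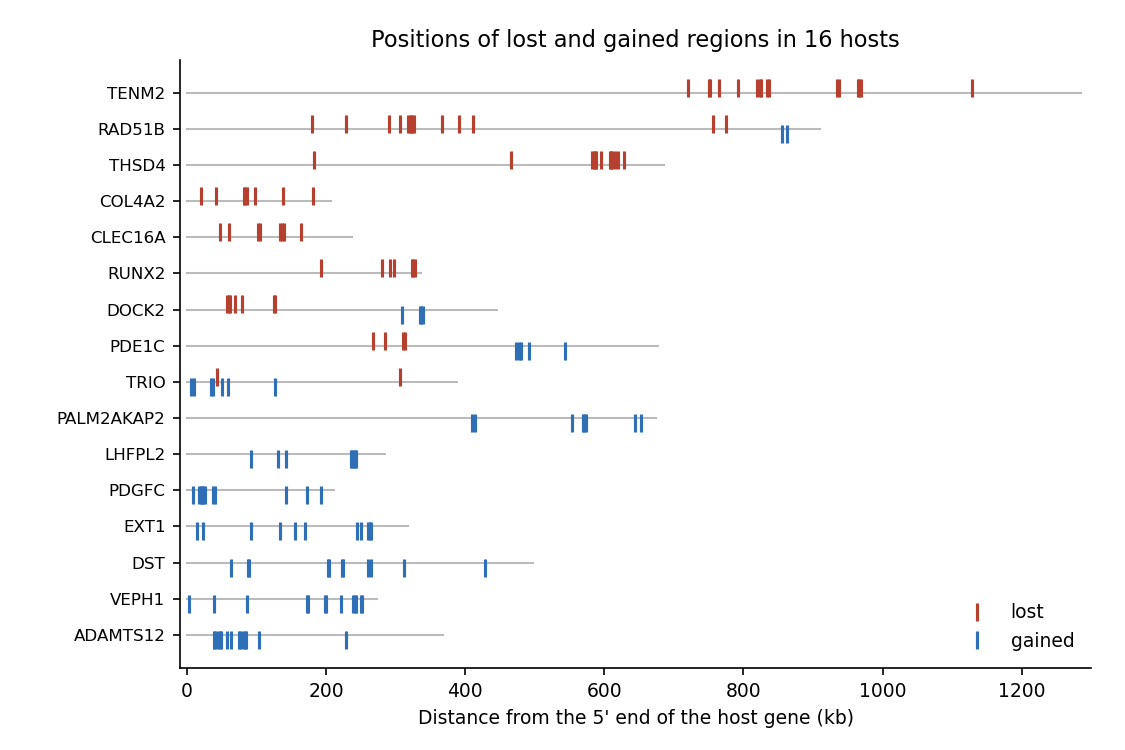
Positions of lost (red) and gained (blue) regions in 16 hosts, as the distance of the region's centre from the 5′ end of the host (kb, horizontal axis). Grey lines span the host. In DOCK2 and PDE1C the lost and gained regions occupy separate stretches, whereas in TRIO a lost region lies among gained ones.

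The 5′ ends of the hosts were then examined, since regions near them are no members. Of the 210 gained-only hosts, 25 had a gained and 3 a lost region within 2500 bp of their own 5′ end. Of the 203 lost-only hosts, 7 had a gained and 6 a lost region there. For the whole series, 1469 gained and 750 lost regions lay within 2500 bp of the 5′ end of a gene. ADAMTS12, EXT1, PDGFC and NALF1 were among the gained-only hosts with a gained 5′ end. Of the mixed hosts, MYLK had a lost 5′ end, while RAD51B, with 14 lost and 2 gained regions, had a gained one.

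Long hosts were also grouped by function in gene lists, each read against the 32.6% of all long genes that held a region and the 50.6% of their regions that were lost. No list was tested. Among long genes of the extracellular matrix list, 25 of 55 held a region, with 48 lost and 39 gained regions (55.2% lost). Of the 25 matrix hosts, 12 were lost only, 12 gained only and 1 mixed, beside 203, 210 and 77 over all long hosts, 238 of which held a single region and could not be mixed. Matrix hosts with lost regions included THSD4, COL4A2, SPOCK1 (5 lost, 1 gained), a proteoglycan, and TLL1 (4 lost), a protease of procollagen processing. Those with gained regions included ADAMTS12, EXT1, ADAMTSL1 and LTBP1, which binds latent TGF-beta and held 2 gained regions. For cell-cell adhesion, 14 of 59 long genes held a region, with 27 lost and 17 gained, and TENM2 alone gave 16 of the lost ones. NRXN3, a neurexin, held 5 lost regions and the cell adhesion molecule NTM 3 gained ones.

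Genes of the actin cytoskeleton and focal adhesions held more gained than lost regions, 60 against 40 (40.0% lost), in 28 of 53 long genes. DST, FMN1, TRIO and MACF1 gave 31 of the gained regions. Hosts with lost regions included MYLK and BCAR3 (5 lost, 1 gained), a docking protein of focal adhesion signalling. They also included TNS1 (4 lost), the focal adhesion protein tensin-1, and CALD1 (3 lost), the actin-binding caldesmon.

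Growth factor signalling had 18 gained and 4 lost regions in 9 of 31 long genes, but 11 of the gained ones were those of PDGFC. In the TGF-beta, BMP and WNT list, 6 of 13 long genes held 6 lost and 7 gained regions. TGFBR3, the co-receptor betaglycan, held 2 lost regions, PRICKLE2 3 lost ones, and BMPER, a BMP-binding protein, 1 lost and 3 gained ones. For the Hippo pathway with YAP and TEAD, 8 of 10 long genes held a region, with 11 gained and 5 lost. TEAD1 and WWTR1, which encodes TAZ, held 2 gained regions each, as did the phosphatase PTPN14. The kinase gene STK3 and BNC2, a zinc finger gene, held 2 lost regions each. TEAD1 in addition had a lost region at its own 5′ end.

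Transcription factors and co-regulators held 44 lost and 33 gained regions in 32 of 86 long genes. CAMTA1, RUNX2, ETV6 (3 lost) and HIVEP3 (3 lost) were on the lost side. BACH1, a repressor of oxidative stress genes, held 6 gained regions, RUNX1 held 4, and AFF3 held 4 with 1 lost. Of those of BACH1, 3 lay outside the canonical transcript, which spans 47.2 of the 437 kb annotated to the gene. Another lay over a further annotated start of BACH1. Calcium, cAMP and cGMP signalling genes held 38 lost and 28 gained regions in 28 of 57 long genes. These included the calcium channel subunits CACNA2D3 (5 lost, 1 gained) and CACNA1C (4 lost), PRKAG2 (4 lost), PRKCE (2 lost, 4 gained) and GNAI1 (3 gained). A further 320 hosts, in none of the lists drawn up, held 333 lost and 317 gained regions (51.2% lost), close to the share over all long hosts.

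Base composition separated lost from gained regions of long hosts. The median GC content was 45.0% (quartiles 40.5% and 49.1%) in lost and 40.9% (quartiles 37.5% and 43.5%) in gained regions. A GC content of at least 50% was reached by 119 lost regions (20.8%) and 31 gained ones (5.57%), an odds ratio of 4.47 (Fisher's exact test, p adjusted over 8 features 8.7e-14). In shorter hosts the shares were 43.5% and 22.0% (odds ratio 2.73). The difference between long and shorter hosts was not past the threshold (logistic interaction term, n = 1128 and n = 1490 regions, p = 0.0376, adjusted p = 0.263). GC-rich lost regions included 6 in ENSG00000255872, 5 in CAMTA1 and 4 each in CLEC16A, MICAL2 and TNS1. The surroundings differed in the same direction. The 20 kb on each side of a region had a median GC content of 42.4% for lost and 40.1% for gained regions. The excess of a region over its own flanks was a median of 1.99 percentage points for lost and 0.540 for gained regions. Of the 77 mixed hosts, 53 had a higher median GC content in their lost than in their gained regions.

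**Figure D4:**
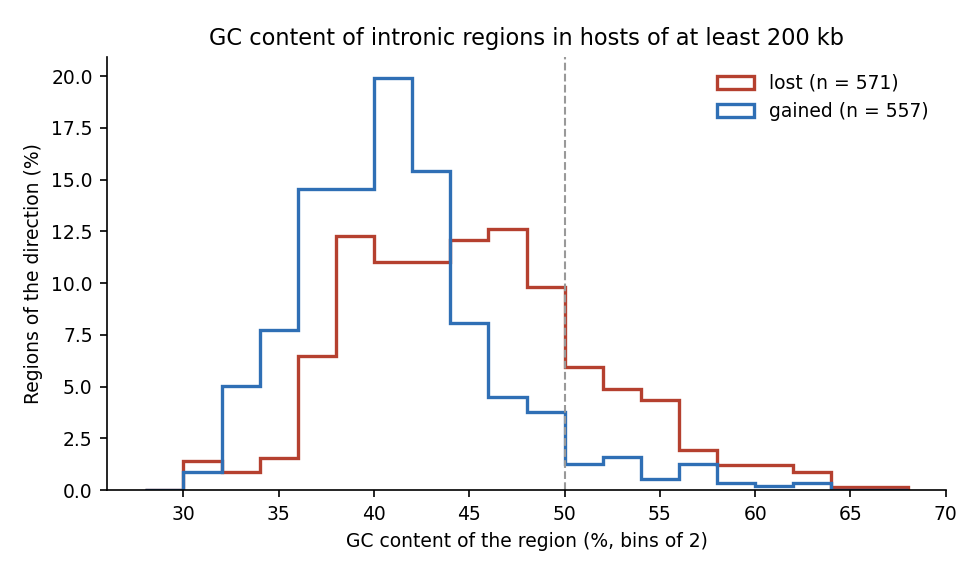
GC content (%, horizontal axis, bins of 2) of lost (red, n = 571) and gained (blue, n = 557) regions in hosts of at least 200 kb, as the percent of regions of each direction (vertical axis). The dashed line marks 50%, above which lie 20.8% of lost and 5.57% of gained regions.

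The position within the host was compared next. Among regions within the introns of the canonical transcript, 90 of 483 lost (18.6%) and 137 of 506 gained regions (27.1%) were in the first intron, an odds ratio of 0.617 (Fisher's exact test, adjusted p = 0.00505). EXT1, PDGFC, NALF1 and TRIO gave 33 of the 137 gained ones. The call was lost without the hosts with the most regions (an odds ratio of 0.713 with an adjusted Fisher's exact p = 0.149). It was also lost with 1 region of each direction per host (odds ratio 0.843). That alternative kept the region nearest the 5′ end of the host, which favours the first intron. It therefore cannot tell whether the first-intron difference depends on hosts with many regions. The median distance from the 5′ end of the host was 195 kb for lost (quartiles 103 and 343 kb) and 164 kb for gained regions (quartiles 73.0 and 287 kb). A centre nearer to the 5′ than to the 3′ end of the host was seen for 45.5% of lost and 50.4% of gained regions (an odds ratio of 0.821 with an adjusted Fisher's exact p = 0.215). This passed the threshold without chromosome 9 (odds ratio 0.743, adjusted Fisher's exact p = 0.0338) and with hosts of at least 100 kb (odds ratio 0.753, adjusted p = 0.00389).

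A width of at least 2000 bp (43.3% against 39.7%, odds ratio 1.16), a place inside another gene (10.7% against 10.95%) and an abutting listed region (22.9% against 21.4%) did not pass the threshold at 200 kb. An annotated transcript, mostly an alternative one of the host, started within 2500 bp of 65 lost (11.4%) and 79 gained regions (14.2%), an odds ratio of 0.777 (Fisher's exact test, adjusted p = 0.289). In hosts of at least 500 kb the shares were 4.66% and 13.2%, an odds ratio of 0.321 that passed the threshold (adjusted Fisher's exact p = 0.0171). All 7 lost regions of DOCK2 and 5 of those of MYLK were of this kind, each near a further annotated start of its own host.

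Matches to binding motifs were then compared. The TEAD motif occurred in 242 lost (42.4%) and 188 gained regions (33.8%), an odds ratio of 1.44 (Fisher's exact test, p adjusted over 18 motifs 0.0114). The core CATTCC alone was found in 72.9% of lost regions and in 64.8% of gained ones, with an odds ratio of 1.46, which was 1.37 and no longer past the threshold with GC content and width of the regions as covariates. The density of TEAD matches was 34.3 per 100 kb in lost and 25.5 in gained regions. Among the hosts shown above, 9 of 14 lost regions of RAD51B, 7 of 16 of TENM2 and 4 of 13 of THSD4 held a match. Gained regions with a TEAD match were 6 of 14 in ADAMTS12, 4 of 13 in VEPH1 and 3 of 11 in DST. They were 5 of 11 in PDGFC and 3 of 8 in LHFPL2. The odds ratio was 2.07 in shorter hosts (46.0% against 29.2%), and the difference from long hosts was not past the threshold after adjustment (interaction term, n = 1128 and n = 1490 regions, p = 0.0296, adjusted p = 0.267). For the full TEAD motif in long hosts it was 1.53 with the same covariates (logistic model, n = 1128 regions, adjusted p = 0.0122), and 1.14, not past the threshold, in hosts of at least 500 kb without covariates.

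The SRF motif (the CArG box) was found in 97 lost (17.0%) and 45 gained regions (8.08%), an odds ratio of 2.33 (Fisher's exact test, adjusted p = 5.6e-05), which was 2.67 with the covariates. The ATF4 composite element showed the opposite direction, with 24 lost (4.20%) and 54 gained regions (9.69%), an odds ratio of 0.409 (adjusted Fisher's exact p = 0.00222), which was 0.359 with the covariates. With 1 region of each direction per host, TEAD (odds ratio 1.96) and SRF (2.45) stayed past the threshold, whereas ATF4 composite (odds ratio 0.429, adjusted Fisher's exact p = 0.1096) did not. VEPH1 had the ATF4 composite element in 3 of 13 gained regions, 1 of them with its only match beside letters typical of Alu repeats. TEAD, SRF and ATF4 composite matches are found in 35.1%, 11.2% and 7.29% of all listed regions.

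The calls of NF-kB, MEF2 and GATA, like that of the TEAD core, were lost once base composition and width were fitted. Those of NF-kB, MEF2 and GATA were also lost with 1 region of each direction per host (odds ratios 1.45, 0.760 and 0.978). The NF-kB motif (GGG, A or G, any 2 bases, C or T, CC) was found in 42.0% of the lost against 28.4% of the gained regions (an odds ratio of 1.83 with an adjusted Fisher's exact p = 2.8e-05), but the odds ratio was 0.982 with GC content and width as covariates. The AT-rich MEF2 motif (26.3% against 34.6%, an odds ratio of 0.672 with an adjusted Fisher's exact p = 0.0106) and GATA motif AGATAA (61.5% against 68.4%, odds ratio 0.737, adjusted p = 0.0388) had odds ratios of 0.844 and 0.936 with the covariates and were no longer past the threshold. The AP-1 motif did not differ past the threshold, with a match in 44.5% of lost regions and in 46.0% of gained ones (an odds ratio of 0.942 with an adjusted Fisher's exact p = 0.712). It occurred in 6 of 14 gained regions of ADAMTS12 and in 7 of 16 lost regions of TENM2. A match is a run of letters and not a bound site.

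**Figure D5:**
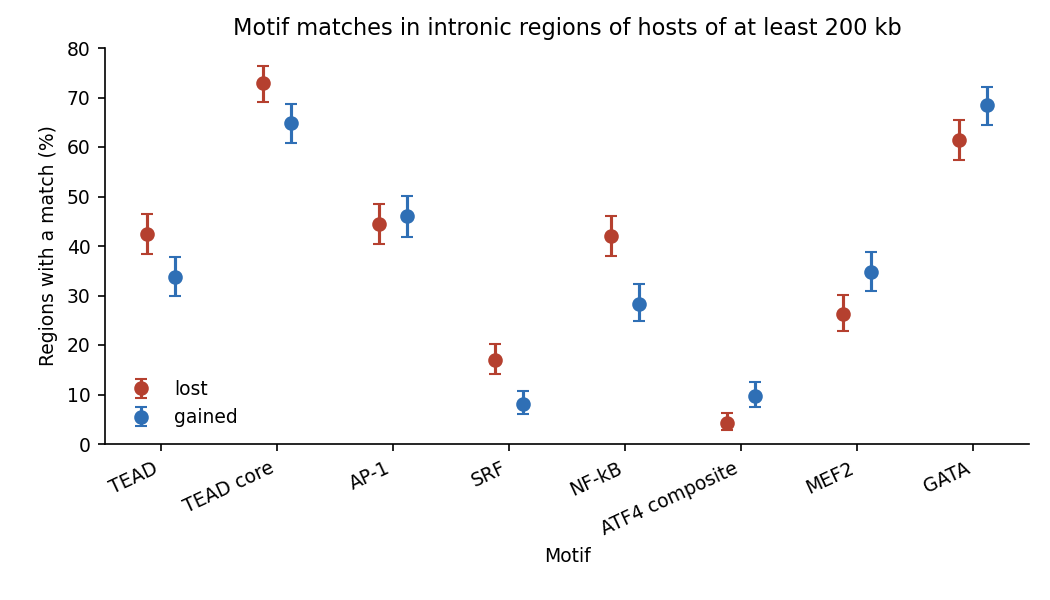
Share of lost (red) and gained (blue) regions in hosts of at least 200 kb with at least 1 match (%, vertical axis) to the motifs past the threshold and to AP-1. Points are shares over 571 lost and 557 gained regions and bars are Wilson 95% intervals. The intervals of AP-1 and of GATA overlap between the directions, and those of the other motifs do not.

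The members just inside the length limit were hosted by RFTN1 (200.5 kb, 1 lost and 1 gained region), LIPA (201.0 kb, 3 gained) and ENSG00000285404 (201.3 kb, 1 lost). Just outside lay CLIC5 (199.5 kb, 1 lost), NEDD9 (199.1 kb, 1 lost and 1 gained) and ASAP2 (198.9 kb, 3 gained). The nearest member to the 5′ end of a gene lay 2660 bp from it, in RAD51B, and the farthest excluded region in a long gene 2476 bp, in CCNY.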

How the data were processed

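Per the study's methods and the labels, the authors aligned single-end reads to hg38 with Chromap, removed duplicates and blacklisted regions, called peaks per library against input DNA with MACS2 (version 2.1.1.20160309 per the processing notes), cut them into bins and tested the 8 H3K27ac libraries together with MAnorm2. Wide peaks can thus yield several abutting regions. The deposited lists hold chromosome, start and end only and no other measurement, so depth and precision per region are unknown. Their names state an adjusted p threshold of 0.15, the methods text a stricter one.

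Regions were placed with GENCODE release 44 (62700 genes; the study used an earlier release), and sequences were read from hg38. Starts count from 1. Intron numbers refer to the canonical transcript, and a region outside it has none. Lost and gained shares were tested by Fisher's exact test, two-sided, (scipy 1.17.1) and Benjamini-Hochberg adjustment at 0.05, long against shorter hosts with logistic interaction terms (statsmodels 0.14.6). The test code was tested on simulated data. Alternatives were 1 region of each direction per host, joined abutting regions, other length limits, all transcript 5′ ends, no chromosome 9 and the central 1000 bp. The 1 region kept per host and direction was the one nearest the 5′ end of the host. Canonical length, removal of the top hosts, covariates and repeat letters were added after seeing the data. Named hosts were the first 12 per direction by region count with ties, up to 6 mixed hosts, up to 4 per direction of each gene list, TEAD1, BNC2, PDGFC, THSD4, LTBP1, and those beside the length limit; CCNY was named after its value was seen. Members and lists were chosen with earlier results of these data known. Some items that these rules select, 1 gene list among them, are not reported here.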

Additional observations from a re-analysis of the deposited data

How the results depend on the processing

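No paired analysis was possible because only positions, without replicate values, were given for the regions, which also kept replicates from being left out and a stricter threshold from being set. The lost share of long against shorter hosts (odds ratio 0.990) changed side of 1 without passing the threshold with a limit of 100 kb (1.04), with canonical length (1.03) and without the hosts with the most regions (1.03). With a limit of 500 kb it was, by Fisher's exact test, 1.44 (p = 0.00259), against all other regions 1.49 (p = 0.000454) and for single-direction hosts 1.22 (p = 0.393), whereas the TEAD odds ratio was 1.14 and no longer past the threshold, with 193 lost and 136 gained regions left. Of the other motifs, 6 passed the threshold, but 2 with 1 region per host, 10 at 100 kb, 1 at 500 kb and 2 with the covariates. Of the 8 features, 3 passed, but 1 with 1 region per host, 5 at 100 kb, 4 without chromosome 9 and 1 without the hosts with the most regions. The feature gained without chromosome 9 was a centre nearer the 5′ end, which with a width of at least 2000 bp was also gained at 100 kb. GC content passed under every alternative run. The odds ratio for a place inside another gene, never past the threshold in these, changed side with joined regions (1.01), at 100 kb (1.12), at 500 kb (1.03), with every transcript 5′ end (1.11) and without the top hosts (1.03), that for a centre nearer the 5′ end at 500 kb (1.07), that for abutting regions with canonical length (0.972) and that for NF-kB with the covariates (0.982). Some matches lay beside letters typical of Alu repeats, which are common in human introns. For TEAD they were 4 of 341 matches in lost and 2 of 234 in gained regions. For ATF4 composite they were 1 of 25 and 2 of 58. Leaving these matches out changed no call (TEAD 1.45, ATF4 composite 0.408). Apart from the effect of the covariates, which were fitted, the cause of these changes was not tested.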
